A study of Homo sapiens with 2 samples.

Results

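USP genes other than USP1, USP3, USP5, USP7, USP12 and USP36 were examined for NeuroD1 binding in IMR-32, an established line of neuroblastoma cells in which MYCN is amplified. The members were the 45 protein-coding RefSeq genes with a symbol made of USP and a number, with or without a trailing letter, out of 20033 protein-coding genes on chromosomes. The 6 genes left out are USP genes that the study names, either as its candidates (USP1 and USP12) or from earlier work on N-Myc. A gene was called bound when a peak lay in it or up to 3 kb from either end. The series has 1 NeuroD1 ChIP library and 1 input library, both from IMR-32 cells with the genotype WT. The input was not analysed here. The labels name a NeuroD1 antibody for the ChIP library, whereas the supplementary ChIP methods describe an H3K27Ac antibody. The supplement's antibody list also holds a NeuroD1 antibody from the maker that the labels name. The peaks were taken as NeuroD1 peaks, as labelled.

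Ubiquitin-specific proteases (USPs) form the largest family of deubiquitinating enzymes, which cut ubiquitin from other proteins and can thereby protect them from the proteasome or change their place and partners. A catalytic cysteine in a conserved USP domain does the cutting. NeuroD1 is a basic helix-loop-helix transcription factor of neurons and endocrine cells. It binds DNA with an E-protein partner at E-boxes, which are 6-base sites of the form CANNTG, and the forms CAGCTG and CAGATG are those it is best known for.

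The deposited list held 6183 peaks with a median fold enrichment of 6.79, from 1.58 to 70.0. Fold enrichment compares the weighted ChIP reads at the summit with the background there, after 1 is added to both. The reads and the background were solved for each peak, from its enrichment and its −log10 p. The median over all peaks was 17 ChIP reads and a background of 1.31. With 1 library there was no replicate and no test between groups, and every interval below covers counting error only.

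NeuroD1 peaks were found at 14 of the 45 USP genes (31.1%, 95% exact Clopper-Pearson interval 18.2% to 46.6%), namely USP2, USP9X, USP13, USP15, USP20, USP22, USP25, USP30, USP32, USP39, USP42, USP47, USP49 and USP54. Among all protein-coding genes 21.4% had a peak by the same rule, and this value lies inside the interval. The bound genes held 19 peaks, and 10 genes had 1 peak, 3 genes had 2 and USP49 had 3. Of these peaks, 13 overlapped the gene and 6 lay beside it. The bound genes lie on 11 chromosomes.

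The other 31 USP genes had no peak. These were USP4, USP6, USP8, USP9Y, USP10, USP11, USP14, USP16, USP18, USP19, USP21, USP24, USP26, USP27X, USP28, USP29, USP31, USP33, USP34, USP35, USP37, USP38, USP40, USP43, USP44, USP45, USP46, USP48, USP50, USP51 and USP53. The limit of 3 kb separated the genes widely. The bound gene with the widest gap to its nearest peak was USP9X (659 bp), and the unbound genes with the narrowest gaps were USP19 (12.1 kb), USP33 (12.5 kb) and USP4 (18.3 kb). Among the unbound genes, 11 had their nearest peak within 100 kb, 14 at up to 1000 kb and 5 farther away. These 5 were USP16 on chromosome 21 and USP11, USP26, USP27X and USP51 on chromosome X, which held 27 peaks in all. No peak was called on chromosome Y, where USP9Y lies.

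Most of the peaks, 12 of 19, lay at gene starts. RefSeq promoter windows listed at least 1 start for 33 of the 45 genes and for 12 of the 14 bound genes. A summit within 1 kb of a listed start was found at 10 genes, namely USP13, USP15, USP22, USP25, USP30, USP32, USP39, USP47, USP49 and USP54. That is 30.3% of the 33 genes (15.6% to 48.7%), against 15.4% of the 15842 protein-coding genes with a listed start, a share just under the lower bound of the interval. The difference includes weak peaks. At USP13, USP25, USP32 and USP47 the peak at the start had a −log10 q below 5 (2.45, 2.44, 4.05 and 4.24). Neither share was counted again without such peaks. Among bound genes with a listed start, the share was 83.3% for the USP genes (51.6% to 97.9%) and 69.6% for all protein-coding genes. Of the 12 USP peaks at starts, 10 had their summit upstream and 2 downstream, from 401 bp upstream to 38 bp downstream. The median summit lay 70 bp upstream of the start, and 89 bp upstream over the 2648 pairs of a peak and a protein-coding gene within 1 kb.

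**Figure D1:**
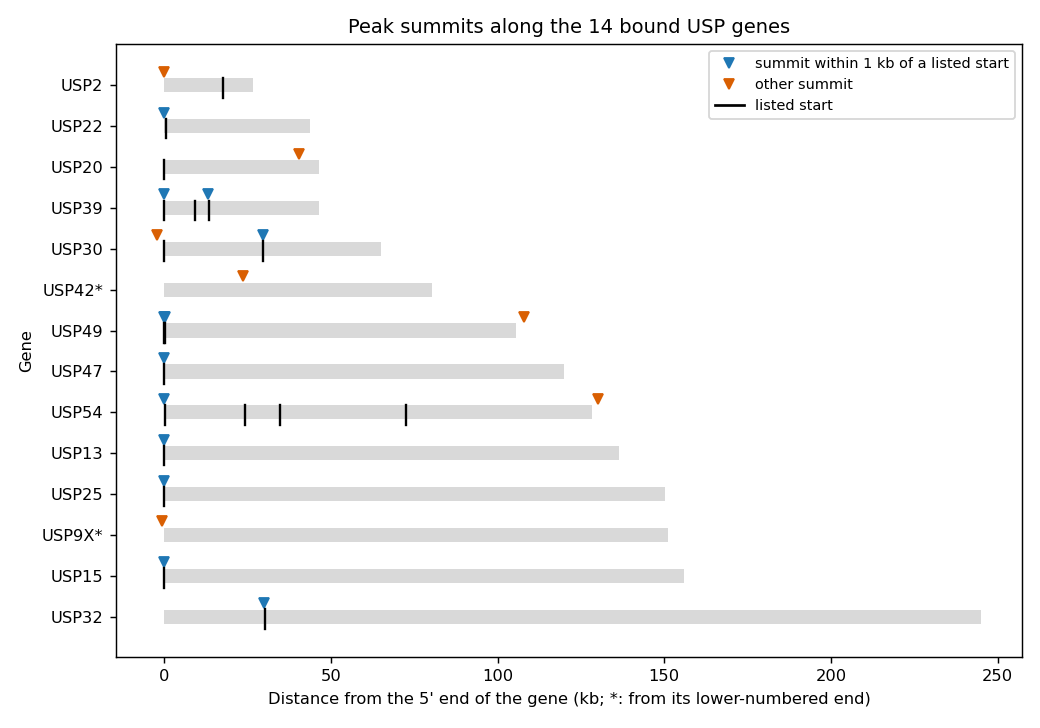
Each grey bar is 1 bound USP gene, drawn in kb from its 5′ end (for USP42 and USP9X, marked with an asterisk, from the end with the lower coordinate), with black ticks for listed starts and triangles for peak summits. The 12 blue triangles lie within 1 kb of a listed start, and in USP30, USP32 and USP39 such a start lies well inside the gene.

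The bound genes are described by lists of known roles, each of 1 to 8 genes. Against the 21.4% of all protein-coding genes, lists of this size are counted as a description alone. Of the 5 USP genes tied to mitochondria and the removal of damaged mitochondria, USP15 and USP30 were bound, and USP8, USP33 and USP35 were not. USP30, an enzyme of the outer mitochondrial membrane that opposes mitophagy, had the strongest peak of all 14 genes. It lay at chr12:109052437-109052667 and was enriched 14.0-fold, with a −log10 q of 26.1. Under its summit were 30 ChIP reads (exact Poisson 95% interval, 20.2 to 42.8) and a background of 1.17. With that background held fixed, the interval of the fold enrichment ran from 9.61 to 19.8. The peak ranked 282 of 6183 by fold enrichment, and it was the single USP peak above the upper quartile of 8.68. Among the 6 genes left out, the highest fold enrichment was 9.81 at USP1, 8.66 at USP5, 9.16 at USP12, 9.90 at USP36 and 40.6 at USP3, so that only the USP3 peak was stronger, and USP7 had none.

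The strong USP30 peak did not lie at the first start of the gene. RefSeq lists 2 starts for USP30, and the summit lay 21 bp upstream of the second, 29.5 kb into the gene. The peak also overlapped the antisense transcript USP30-AS1. Near the first start the nearest summit lay 2109 bp upstream, in a peak at chr12:109020932-109021080 enriched 4.91-fold with 14 ChIP reads. That weaker peak overlapped the neighbouring gene SVOP, a synaptic vesicle 2-related protein, with its summit 88 bp downstream of the listed start of SVOP. The 250 bases before each USP30 start are shown because a summit lay at the second start and not at the first. The region of the second start, chr12:109052326-109052575 on the forward strand of GRCh38.p14, holds the summit. The region of the first start, chr12:109022839-109023088 on the same strand, holds none. Capitals mark CAGCTG, or CAGATG of either strand, which reads as CATCTG when it lies on the strand not printed.
USP30 second start: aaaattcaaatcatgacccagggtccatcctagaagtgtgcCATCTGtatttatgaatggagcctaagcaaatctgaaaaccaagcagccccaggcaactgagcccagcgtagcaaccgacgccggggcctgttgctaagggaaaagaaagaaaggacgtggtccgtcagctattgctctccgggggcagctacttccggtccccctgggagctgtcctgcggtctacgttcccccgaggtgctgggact
USP30 first start: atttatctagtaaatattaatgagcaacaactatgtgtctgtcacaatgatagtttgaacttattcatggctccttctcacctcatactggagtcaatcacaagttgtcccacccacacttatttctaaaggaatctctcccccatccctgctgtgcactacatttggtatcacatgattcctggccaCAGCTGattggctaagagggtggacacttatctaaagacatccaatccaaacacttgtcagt

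In the region of the second start, the first base of CATCTG lay 209 bases before the start and the centre of the motif was 186 bases from the summit. In the region of the first start, CAGCTG began 62 bases before the start. The second start had a GC content of 58.3% with 19 CpG sites over its 300-base window, and the first start had 43.0% with none.

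USP15, which removes ubiquitin from components of TGF-β signalling and also opposes mitophagy, had the most ChIP reads at a single summit. Its peak at chr12:62260039-62260358 had 32 reads (21.9 to 45.2) over a background of 3.0. The fold enrichment was 8.09 (5.61 to 11.3) and the −log10 q was 17, the second highest of the USP peaks. By fold enrichment it ranked 1986 of all peaks and by −log10 q it ranked 895. The summit lay 175 bp upstream of the USP15 start. The peak ended 46 bp before USP15 and 1 bp before the microRNA gene MIR6125, and it began 5 bp outside the 5′ end of TAFA2, a gene for a secreted protein of the brain that runs the other way. The listed start of TAFA2 lies 67456 bp from the summit. Of the peak, 64.1% lay inside the USP15 window of 300 bases. The bases before the start, chr12:62260154-62260403 on the forward strand, are shown as the region of the most covered summit, and none of the 3 motif forms occurred in them.
USP15: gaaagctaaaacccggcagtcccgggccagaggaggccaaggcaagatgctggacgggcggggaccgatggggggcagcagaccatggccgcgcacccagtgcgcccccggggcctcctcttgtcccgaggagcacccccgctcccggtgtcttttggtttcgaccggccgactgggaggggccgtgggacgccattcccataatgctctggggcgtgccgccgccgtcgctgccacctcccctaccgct

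Of the 4 genes linked to splicing, USP15, USP39 and USP49 were bound and USP4 was not, where 21.4% of all protein-coding genes were bound. USP39, a part of the spliceosome that lacks deubiquitinating activity, had peaks at 2 of its 3 listed starts. The peak at the first start, chr2:85602610-85602844, was enriched 6.34-fold (3.73 to 10.2), with 15 ChIP reads and a summit 69 bp upstream. The peak at the third start, chr2:85616016-85616178, was enriched 4.91-fold (3.05 to 7.52), with 19 reads over a background of 3.0, and a summit 72 bp upstream. The first peak was shared, since it overlapped TMEM150A with its summit 94 bp upstream of that gene's start. It also lay 2410 bp from C2orf68.

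USP49, which acts on histone H2B and has been linked to splicing, had 3 peaks on chromosome 6. A pair lay at its 2 listed starts, which are close together. The peak at chr6:41895374-41895556 was enriched 6.24-fold (3.61 to 10.2), with a summit 49 bp upstream of the first start. The peak at chr6:41895038-41895237 was enriched 6.21-fold (3.58 to 10.1), with a summit 20 bp downstream of the second. Each of these summits was covered by 14 reads. The third peak, at chr6:41787484-41787704 and 2192 bp beyond the far end of USP49, was enriched 4.58-fold, with 13 reads over a background of 2.0. Its summit lay 86 bp upstream of the start of TOMM6, a subunit of the import channel of the outer mitochondrial membrane. PRICKLE4, a relative of the planar cell polarity gene PRICKLE1, lay 32 bp from this peak.

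Among the 8 genes for enzymes of ubiquitinated histones H2A and H2B, USP22 and USP49 were bound, and USP11, USP16, USP21, USP27X, USP44 and USP51 were not. USP22 is the deubiquitinase of the SAGA coactivator complex. Its peak at chr17:21043285-21043534 was enriched 6.75-fold (3.82 to 11.2), with 13 reads over the lowest background of 1.04. The summit lay 401 bp upstream of the listed start and 7 bp inside the 5′ end of the RefSeq gene. USP27X and USP51, the close relatives of USP22, had no peak.

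Of the 8 genes listed for MYC, p53 or the cell cycle, USP2, USP13 and USP22 were bound. USP10, USP28, USP29, USP37 and USP44 were not, among them USP28, which is known to stabilise MYC. USP2, known to protect cyclin D1, had a peak at chr11:119381569-119381740 enriched 6.27-fold (3.48 to 10.6) with 12 reads. Its summit lay 3 bp inside the 5′ end of the RefSeq gene, while the single start listed for USP2 lies 17479 bp farther downstream. The antisense gene USP2-AS1 lies 38 bp from the peak.

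USP13, the closest relative of USP5, had a weak peak at chr3:179652965-179653110. It was enriched 4.83-fold (2.47 to 8.72), with a −log10 q of 2.45, 9 reads (4.12 to 17.1) and its summit 38 bp downstream of the start. The region before the start, chr3:179652790-179653039 on the forward strand, is shown because it is the other window that held both a summit and a motif. Its CAGCTG began 44 bases before the start, and its centre lay 80 bases from the summit.
USP13: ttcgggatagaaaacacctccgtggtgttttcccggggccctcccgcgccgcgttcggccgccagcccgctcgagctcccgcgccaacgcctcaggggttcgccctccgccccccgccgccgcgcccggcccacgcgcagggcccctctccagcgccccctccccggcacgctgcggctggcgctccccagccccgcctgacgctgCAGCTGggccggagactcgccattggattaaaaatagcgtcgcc

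Of the 6 genes tied to endosomes and membrane traffic, USP2 and USP32 were bound, and USP6, USP8, USP19 and USP33 were not. USP32, a membrane-anchored enzyme of the late endosomal pathway, had the lowest fold enrichment of the 19 peaks. Its peak at chr17:60392375-60392634 was enriched 3.50-fold (2.30 to 5.14). It had 24 ChIP reads (15.4 to 35.7), but its background of 6.0 was the highest of the USP peaks. The summit lay 376 bp upstream of the listed start, 29.9 kb inside the RefSeq gene. The interval for this peak does not reach that of the strong USP30 peak.

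Of the 4 genes linked to neuronal development, USP9X was bound, and USP24, USP33 and USP34 were not. USP9X, an X-linked gene mutated in intellectual disability, had a peak at chrX:41084547-41084786, 659 bp beside the end of the gene with the lower coordinate. Its fold enrichment was 5.31 (2.80 to 9.35), its −log10 q was 3.31 and its summit had 10 reads. It was the single bound gene of the 5 USP genes on chromosome X.

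No peak lay at USP14, the deubiquitinase of the proteasome, at USP18, which removes the ubiquitin-like protein ISG15, or at USP46, which is activated by WDR48. USP41, listed with USP18, is a pseudogene in this RefSeq release and was left out.

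The other 5 bound genes were in none of the lists above. USP20, an enzyme that binds the von Hippel-Lindau protein, and USP42, which has been linked to p53 although the list above leaves it out, had peaks of equal values, enriched 7.24-fold (4.26 to 11.6), with a −log10 q of 7.67 and 15 reads over a background of 1.17. These peaks lay deep inside the genes. The USP20 summit, in a peak at chr9:129875798-129875962, lay 40.4 kb downstream of the start and 6.0 kb from the far end of the gene. The USP42 summit, in a peak at chr7:6104638-6104906, lay 23.5 kb from the end of the gene with the lower coordinate and 56.8 kb from the other.

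USP47, the closest relative of USP7 and known from base excision repair, had a peak at chr11:11841753-11841993, enriched 5.79-fold (3.14 to 9.97), with 11 reads and a summit 131 bp upstream of its start. The peak also overlapped the non-coding gene LOC107984311. USP25, a relative of USP28, had a peak at chr21:15729825-15730011, enriched 4.79-fold (2.45 to 8.65), with 9 reads and a summit 53 bp upstream of its start. Its −log10 q of 2.44 was the lowest of the USP peaks. USP54 had 2 peaks on chromosome 10. The peak at chr10:73625890-73626047 was enriched 6.27-fold (3.48 to 10.6) with 12 reads, and its summit lay 329 bp upstream of the nearest listed start and 11 bp inside the 5′ end of the RefSeq gene. The peak at chr10:73495823-73496101, enriched 6.75-fold (3.82 to 11.2) with 13 reads, lay 1437 bp beyond the far end of USP54. It overlapped PPP3CB, a catalytic subunit of the phosphatase calcineurin, and its summit lay 17 bp from an end of that gene.

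In all, 5 of the 19 peaks also lay in or within 3 kb of another protein-coding gene. For the peaks farthest from USP30, USP49 and USP54, the neighbour (SVOP, TOMM6 and PPP3CB) was overlapped by the peak and the USP gene was not. Each of these 3 genes had a second peak at a start of its own, so the number of bound genes does not rest on the shared ones. USP15 and USP39 also had a shared peak, and that of USP15 was its single one.

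**Figure D2:**
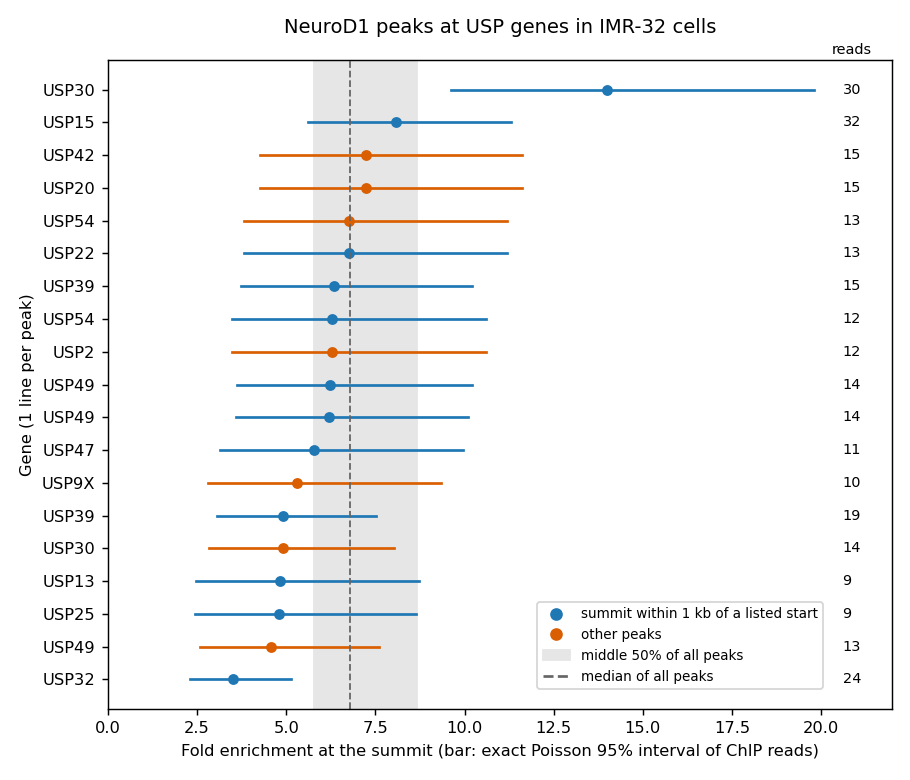
Fold enrichment of the 19 peaks at USP genes, 1 line per peak, with bars for the exact Poisson 95% interval of the ChIP reads at a fixed background and the number of reads at the right. Blue points lie within 1 kb of a listed start, the grey band is the middle 50% of all 6183 peaks (5.79 to 8.68) and the dashed line is their median of 6.79. The peak of USP30 at 14.0 stands to the right of the band, and the other points lie between 3.50 and 8.09.

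Most of the USP peaks lay below the median of all peaks in strength. Their median fold enrichment was 6.24, against 6.79 for all peaks. Of the 19 peaks, 4 lay above the median over the list (USP15, USP20, USP30 and USP42) and 7 lay below the lower quartile of 5.79. They had a median of 14 ChIP reads at the summit, from 9 to 32, against 17 over all peaks. Their median width was 221 bp, from 146 to 320 bp, against 220 bp over all peaks. Apart from the strong USP30 peak, the interval of every USP peak included or lay below the median of all peaks. When genes are ordered by their highest peak, neighbours in the order had overlapping intervals, USP30 and USP15 included. Overlap of separate intervals does not settle whether neighbours differ, and the order was not tested.

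Few of the windows at the summits held a motif. Each RefSeq window covers 250 bases before a start and 50 after it, and both strands were searched for CAGCTG and for CAGATG. The former reads the same on both strands, and all forms are also cases of CANNTG. Of the 9 USP windows that held a summit, 2 had a motif (those of USP30 and USP13), or 22.2%. Over all protein-coding genes the share was 25.7% of the 2025 windows with a summit and 27.6% of all 22077 windows. With any CANNTG, the shares were 33.3% of the 9 USP windows, 57.0% of all windows with a summit and 65.1% of all windows. The 2 USP49 windows among the 9 overlap each other. At USP54, motifs lay in 2 of the 4 windows, and no summit lay in either. The windows cover only a part of some peaks, from 64.1% at USP15 to 100% at USP25, USP47 and single peaks of USP39 and USP49, and bases outside them were not searched. The paper searched its NeuroD1 binding sites with the motif program HOMER and reports that NeuroD1 motifs were enriched there. The shares above are for promoter windows and do not speak to that result.

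The windows with summits were rich in G and C. The 9 USP windows had a median GC content of 68.7%, from 58.3% to 79.0%, and between 19 and 42 CpG sites. The 34 USP windows without a summit had a median of 67.8%. Over all protein-coding genes, the median was 68.0% in windows with a summit and 61.7% in those without. All USP windows together had a median of 68.3%, against 62.3% for all windows of protein-coding genes. The part of GC content in the motif shares, and in the share of USP genes with a summit at a start, was not tested.

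The bound USP genes were long. Their median length was 112.7 kb, from 26.5 to 245.1 kb, against 63.9 kb, from 3.1 to 283.6 kb, for the unbound USP genes. All protein-coding genes had a median of 24.1 kb, and those with a peak had 38.9 kb. In the longest quartile of protein-coding genes, above 65.2 kb, 9 of 24 USP genes were bound (37.5%), against 30.7% of all genes of that quartile. In the third quartile, from 24.1 to 65.1 kb, 5 of 15 were bound (33.3%), against 23.4%. None of the 6 shorter USP genes had a peak, where all genes of the first and second quartile had shares of 12.6% and 18.8%. Gene length thus moved with binding in all genes and in the USP genes, and its part in the number of bound USP genes was not tested.

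**Figure D3:**
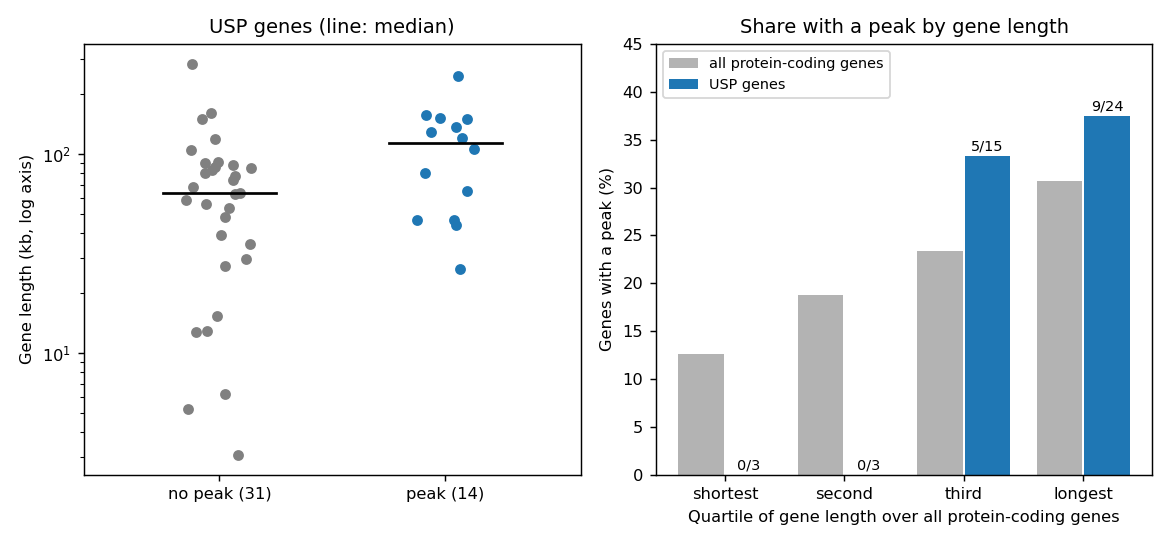
Left, length in kb (log axis) of the 31 unbound and 14 bound USP genes, 1 point per gene, with a line at each median (63.9 and 112.7 kb). Right, share of genes with a peak in each length quartile of all protein-coding genes, grey for all genes and blue for USP genes, with the USP counts above the bars; the grey bars rise from 12.6% to 30.7%.

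Among 14 listed groups of 2 or 3 related genes, 9 held a single bound gene and 5 held none. USP9X is in 2 of the 9 groups, so 8 bound genes are counted. With 21.4% of all protein-coding genes bound, nothing particular to relatives is read from these counts. Examples are USP15 but not USP4 or USP11, USP20 but not USP33, USP25 but not USP28, USP32 but not USP6, and USP54 but not USP53. Both USP35 and USP38, both USP16 and USP45, and both USP31 and USP43 were unbound. Relatives among the 6 genes left out were not part of these groups. USP5 and its relative USP13 both had a peak, with a highest fold enrichment of 8.66 and 4.83. USP12, the relative of USP46, had a peak of 9.16-fold, while USP7, the relative of USP47, had none.

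With a −log10 q of at least 5, 9 USP genes kept a peak (20.0% of 45, 9.58% to 34.6%), where all protein-coding genes had 17.2%. The 5 genes lost were USP9X, USP13, USP25, USP32 and USP47. Of their peaks, all but that of USP32 were covered by 11 reads or fewer at the summit.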

How the data were processed

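The peaks deposited for 1 NeuroD1 ChIP-seq library of IMR-32 cells were used, without the input library. The submitters' processing notes name BWA 0.7.17, MACS2 2.2.7 and hg38, while the peak names carry macs3. Neither the control nor the threshold on q is given in the sources used here. The depth of the library is unknown. The authors deposited, for each peak, the fold enrichment at the summit as a ratio, the −log10 p and −log10 q, and a score equal to the −log10 q times 10, cut to a whole number, in 6182 of 6183 rows. A further deposited column equals the fold enrichment ratio over the peak width and was not used.

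The MACS Poisson formula was solved for the ChIP reads and the background of each peak. The weight of 1 read (0.980) and the lowest background (1.035) came from the deposited values themselves, with whole reads taken to a tolerance of 0.02 reads that widened slightly with the pileup. The solution was unique for 6181 of 6183 peaks and for all 19 peaks at USP genes. In a test on simulated data, 100.0% of 400 peaks returned their reads. The simulated peaks were made with the same formula, so this shows only that the formula can be inverted. It cannot show that the deposited values follow the formula. Intervals are exact at 95%.

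RefSeq of GRCh38.p14 gave the genes, starts and sequences. It has the coordinates of hg38, and positions are counted from 1. The members and lists were chosen with earlier results of these data known. Every member with a peak is named with all its peaks, members without one by symbol, along with other protein-coding genes at the same peaks and the 3 unbound members nearest to a peak. A list of genes whose products work with USP enzymes was also searched, and the result for 1 of them is not reported here. Non-coding neighbours were named after their values were seen. Alternatives were a −log10 q or a fold enrichment of at least 5, other distances and overlaps, the nearest gene alone, other start windows, other ranks and any CANNTG. The scripts ran in Python 3.11.15 with scipy 1.17.1, numpy 2.4.6, pandas 2.3.3 and matplotlib 3.10.9.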

Additional observations from a re-analysis of the deposited data

How the results depend on the processing

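The number of bound USP genes was 14 with 1 kb or 10 kb in place of 3 kb, with the summit instead of the whole peak and with at least 50% of the peak required. It was 12 with the gene body alone (USP9X and USP15 lost), 13 when a peak counted for the nearest protein-coding gene only (USP15 lost to TAFA2), 11 with a fold enrichment of at least 5 (USP13, USP25 and USP32 lost) and 9 where −log10 q had to reach 5. The share of all protein-coding genes with a peak was 16.0%, 17.8%, 19.7% and 17.2% under these 4 settings, 20.1% with 1 kb and 25.1% with 10 kb. These follow from fewer peaks, another distance or fewer genes for each peak. The number of genes with a peak at a start stayed 10 with 500 bp or 3 kb and was 11 when the 5′ end of the RefSeq gene also counted, an alternative added after the data were seen. That number was not counted with a −log10 q of at least 5, which the start peaks of USP13, USP25, USP32 and USP47 do not reach. USP9X and USP42 have no listed start, so their strand was not available and their 5′ ends could not be counted. Of the 12 bound genes with a promoter window, 3 had a motif in a window, and 6 had any CANNTG. These genes have 19 windows between them, and over all windows 27.6% held a motif and 65.1% any CANNTG. The share over all genes with a window was not counted, so nothing is read from these counts. By −log10 q, 5 of the 14 genes kept their rank and by summed reads 3 did, with USP30 first in each. The 44 summed reads of USP30 include 14 from the peak that overlaps SVOP. Its strong peak alone had 30 reads, against 32 at USP15 and 34 summed at USP39. Peaks shared with another protein-coding gene also hold the 32 reads of USP15 and 15 of those at USP39. They hold 13 of the 41 summed reads of USP49 as well. The order by summed reads was not counted with shared peaks left out for every gene. No paired analysis was possible because a single ChIP library was made. Between 9 and 32 reads lay under the summits, which limits how far the genes can be ranked.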

Other observations

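Genes whose products work with USP enzymes were listed as well, and among all protein-coding genes 21.4% had a peak. ATXN7L3, the adaptor that activates USP22 in SAGA, had a peak at chr17:44199811-44200386 enriched 8.97-fold with 33 ChIP reads (22.7 to 46.3), while ATXN7 and ENY2 of the same module had none. HGS, an endosomal sorting protein, had a peak at chr17:81683631-81684006 enriched 12.6-fold with 42 reads (30.3 to 56.8). STAM, its partner and a binding partner of USP8, had a peak enriched 7.24-fold, and STAM2 had none. G3BP1, the stress granule protein that binds USP10, had a peak enriched 9.16-fold with 18 reads.

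ROBO1, an axon guidance receptor linked to USP33, had 1 peak enriched 13.9-fold with 28 reads (18.6 to 40.5) in a gene of 1171 kb. WDR48 and WDR20, the activators of USP46, as well as SART3, PSMD2, GMPS and PINK1, had no peak.

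Other genes with a symbol that begins with USP fell outside the rule. None of the 25 protein-coding USP17L genes, of which 19 lie on chromosome 4, had a peak, where 21.4% of all protein-coding genes had one. Whether reads can be placed uniquely in these genes was not examined, so the absence of peaks is given as a description alone. USPL1, a SUMO protease, had 1 peak at chr13:30617451-30617633 enriched 5.35-fold with 14 reads (7.65 to 23.5). Of 11 long non-coding genes named after USP genes, 5 had a peak in the gene or within 3 kb. These were USP2-AS1, USP3-AS1, USP12-AS1, USP12-DT and USP30-AS1. USP2-AS1 and USP30-AS1 share a peak already counted for USP2 and USP30, and the others are named after genes left out here. The share over all long non-coding genes was not counted, so nothing is read from this count.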
